A study of Mus musculus with 15 samples.

Results

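*Slc22a3*, *Ctcfl*, *Lrrc39*, *Fam107a* and *St3gal6* are 5 of the 24982 gene symbols counted by RNA-Seq in whole mouse aortas, and were selected on how their read counts differed between control, orchiectomized and DHT-treated mice. Since these same libraries chose the genes, their levels and differences are given as a description, with standard errors and intervals but without a test. All 5 passed the filter on low counts, as did 14121 genes in all. Each of the 15 libraries came from the aorta of 1 male C57BL/6 wild-type mouse, 10 months old, whose strain the study's methods give as C57BL/6J. The control mice had a sham operation, the orchiectomized mice had their testes removed, and the DHT mice were orchiectomized and carried a pellet of dihydrotestosterone (DHT), with 5 mice in each group. Mice of all 3 groups, controls included, received Aldo-salt after 2 weeks of recovery, which lasted 7 days and combined aldosterone from an osmotic minipump (200 µg/kg/d) with 0.9% NaCl and 0.2% KCl in the drinking water. No group was free of Aldo-salt, so every comparison describes loss or replacement of androgen on top of this treatment. Whole aortas hold several cell types, including any blood or lymphoid cells left with the tissue, and the orchiectomized mice still had their adrenal glands.

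DHT is a steroid hormone. Receptors for steroids of this kind act in the nucleus and recognize DNA elements built from the hexamer AGAACA and its reverse complement TGTTCT, which the glucocorticoid and mineralocorticoid receptors share. The 5 genes have unrelated products. *Slc22a3* encodes an organic cation transporter that takes up norepinephrine, histamine and other amines outside neurons. *Ctcfl* encodes the germline paralog of the chromatin factor CTCF, *Lrrc39* a leucine-rich repeat protein of the M-band of striated muscle, *Fam107a* an actin-binding protein known as a target of glucocorticoids, and *St3gal6* a Golgi enzyme that adds sialic acid to galactose on glycans, including ligands of selectins.

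The reads counted on genes ranged from 8268957 to 13816864 per library (median 10930079), and 10 counts corresponded to 0.915 CPM (the usual unit of read counts scaled to library size) in the median library. The defining genes of smooth muscle were abundant in all 15 aortas, with a summed level of 11200 to 25020 CPM. Orchiectomized replicate 2 stood apart from the other libraries. It had the highest summed markers of cardiac muscle (8503 CPM), B cells (181 CPM), mesothelium (380 CPM) and macrophages (1540 CPM), and the lowest of smooth muscle (11200 CPM). Differences are therefore also given without it.

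Between orchiectomized and control mice, the values of 3 of the 5 genes (*Slc22a3*, *Ctcfl* and *Lrrc39*) did not overlap between the groups, and all 3 were lower after orchiectomy, while 1.51% of all tested genes had groups that did not overlap, in either direction. Of all genes tested, 3.22% had an unadjusted edgeR *P* value under 0.01 in this comparison, the threshold used for calls here, and none had an edgeR adjusted *P* value under 0.05, against 1692 at an unadjusted *P* value under 0.05 and 131 at the adjusted threshold in DESeq2. Between DHT-treated and orchiectomized mice, 4 of the 5 did not overlap, with *Slc22a3*, *Ctcfl* and *Fam107a* higher and *St3gal6* lower with DHT. The share of all genes without overlap in that comparison was 6.43%, and 9.72% were called. Between DHT-treated and control mice, *Fam107a* was higher and *St3gal6* lower without overlap, 2 of 5 genes, against 3.58% of all genes without overlap and 3.53% called. Each pair of these 3 comparisons shares a group of mice, so they are not independent of each other, and nothing is read from these counts about the 5 genes because the same values chose them.

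**Figure D1:**
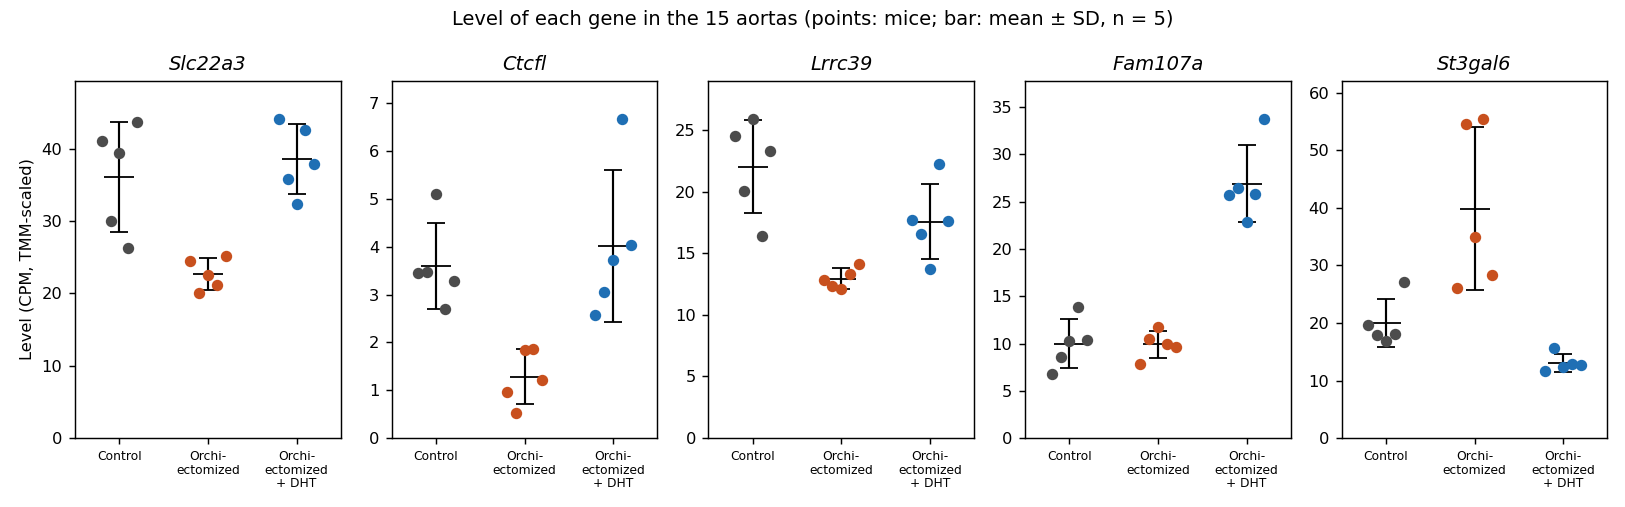
Level of each gene in CPM (vertical axes, linear, from 0) in the 15 aortas, grouped as control, orchiectomized and orchiectomized with DHT. Points are mice and bars the mean ± SD (n = 5). *Slc22a3*, *Ctcfl* and *Lrrc39* were lowest in the orchiectomized mice, *Fam107a* was high in the DHT mice only, and *St3gal6* was highest in the orchiectomized mice.

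**Figure D2:**
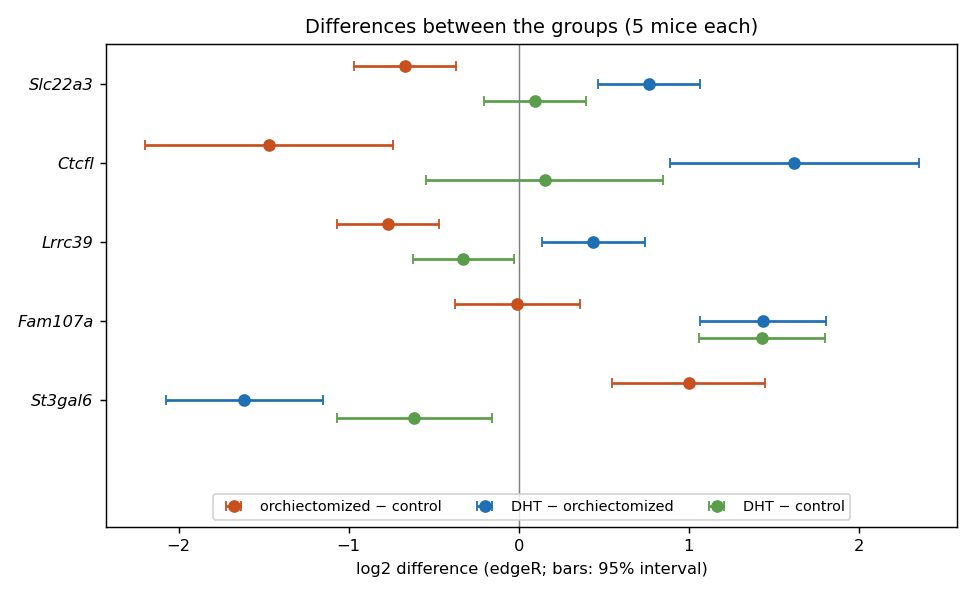
Differences between the groups on the log2 scale (horizontal axis) for the 5 genes, with 95% intervals from the edgeR model of all 15 libraries. The interval lies across 0 for *Slc22a3* and *Ctcfl* between DHT and control mice and for *Fam107a* between orchiectomized and control mice.

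The transporter gene *Slc22a3* lies on the minus strand at chr17:12418960-12507704 (GRCm38), with 11 blocks of exons. Its level in the control mice was 41.0, 30.0, 39.4, 26.2 and 43.7 CPM (mean 36.1 ± 7.56, SD, n = 5). In the orchiectomized mice it was 24.4, 20.0, 22.6, 21.2 and 25.2 CPM (mean 22.7 ± 2.16). In the DHT mice it was 44.0, 35.8, 32.3, 42.6 and 37.9 CPM (mean 38.5 ± 4.84). Every orchiectomized mouse was below every other mouse, although the highest of them was close to control replicate 4, the lowest control. The orchiectomized mice also varied least, with a coefficient of variation of 9.53% against 21.0% in control and 12.6% in DHT mice. After orchiectomy the difference from control was -0.67 on the log2 scale (SE 0.14, 95% interval -0.97 to -0.37), a level 0.629 times that of control. With DHT the level was 1.70-fold that of orchiectomized mice (log2 difference 0.77, SE 0.14, interval 0.46 to 1.07). DHT and control mice overlapped, and their difference was 0.10 (interval -0.20 to 0.39). Without orchiectomized replicate 2 the first 2 differences were -0.64 and 0.74. In a bulk sample, fewer cells that express a gene and less of its RNA per cell cannot be told apart, here and for the genes that follow. The 3' end of *Slc22a3* shares 420 exonic bases with *Plg* on the opposite strand, and *Plg*, the plasminogen gene, had no count in any control library and 0 to 7 counts in the others.

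Other transporters of the same family lie beside *Slc22a3*, in a neighborhood that is imprinted in some mouse tissues together with *Igf2r*, the receptor gene that clears insulin-like growth factor. None of the 4 other genes of the neighborhood that could be tested was called between orchiectomized and control mice, and 2 of them rose with DHT relative to orchiectomized mice. *Slc22a2*, the next transporter gene, had a mean of 10.2 ± 1.99 CPM in DHT and 4.73 ± 1.63 CPM in orchiectomized mice, without overlap (log2 difference 1.11, SE 0.23, edgeR adjusted *P* = 0.0173). *Igf2r* differed by at most 0.11 in size in the 3 comparisons (adjusted *P* from 0.693 to 0.922).

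Among the 13 other tested genes that carry or break down organic cations and monoamines, 1 fell after orchiectomy, 3 rose and 1 fell with DHT relative to orchiectomized mice, and 1 was higher in DHT than in control mice. The first of these counts was 0 and the last 2 without orchiectomized replicate 2, and the median difference after orchiectomy was then 0.0864. The median differences of the list with all libraries were 0.26, 0.29 and 0.26, against medians over all tested genes of 0.04, -0.02 and -0.0029, with which the medians of the lists that follow compare too. Medians are given in the order orchiectomized against control, DHT against orchiectomized, DHT against control. In the same order 3.22%, 9.72% and 3.53% of all tested genes were called, with which the counts of calls in the lists compare. *Slc6a4*, the serotonin transporter, fell with DHT from 3.04 ± 1.24 to 0.951 ± 0.495 CPM (log2 difference -1.68, SE 0.39, edgeR adjusted *P* = 0.0281). For *Maoa*, which oxidizes serotonin and norepinephrine, the differences were 0.42, -0.04 and 0.38, with edgeR adjusted *P* values of 0.661, 0.964 and 0.712.

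*Ctcfl* lies on the minus strand at chr2:173093609-173119525 (GRCm38), with 11 blocks of exons. It was the least counted of the 5 genes, with 36 to 49 reads in the control, 6 to 27 in the orchiectomized and 29 to 54 in the DHT libraries, so each value carries a wide counting error. The 6 reads of orchiectomized replicate 2, for example, have an exact 95% Poisson interval of 2.2 to 13.1 reads, which covers counting error only. The level in the control mice was 3.44, 3.47, 5.11, 2.69 and 3.29 CPM (mean 3.60 ± 0.901). In the orchiectomized mice it was 0.969, 0.531, 1.84, 1.86 and 1.22 CPM (mean 1.28 ± 0.571). In the DHT mice it was 2.57, 3.06, 3.72, 6.67 and 4.03 CPM (mean 4.01 ± 1.59). All 5 orchiectomized mice were below all others, and DHT replicate 4 was the highest of all. The difference after orchiectomy was -1.47 on the log2 scale (SE 0.34, interval -2.20 to -0.74), and with DHT relative to orchiectomized mice it was 1.62 (SE 0.34, interval 0.89 to 2.35). These are levels of 0.362 and 3.07 times the group compared. DHT and control mice overlapped widely (0.15, interval -0.55 to 0.85). Without orchiectomized replicate 2, the library with the fewest *Ctcfl* reads, the 3 differences were -1.27, 1.43 and 0.16.

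An antisense gene, *Ctcflos*, overlaps the 5' part of *Ctcfl* on the plus strand and shares 171 exonic bases with it. Whether the counting used strand is not given in the sources used here, so reads from these bases may have been placed on either gene. *Ctcflos* also had its lowest mean in the orchiectomized mice, with 11.1 ± 4.25 CPM in control, 4.53 ± 2.29 CPM in orchiectomized and 8.64 ± 5.50 CPM in DHT mice, but its groups overlapped in all 3 comparisons. Its difference after orchiectomy was -1.28 (SE 0.44, unadjusted *P* = 0.0105, edgeR adjusted *P* = 0.314) and with DHT 0.92 (SE 0.44, adjusted *P* = 0.243), so it was not called.

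The partners of CTCF on chromatin were also listed. Of 14 other tested genes of CTCF and the cohesin ring, none was called after orchiectomy or between DHT and control mice. Relative to orchiectomized mice 3 fell with DHT, or 2 without orchiectomized replicate 2, and 9.72% of all tested genes were called in that comparison. Nothing is read from these counts about the list. The list medians were 0.06, -0.21 and -0.17. For *Ctcf* itself, the ubiquitous paralog, the differences were 0.08, -0.16 and -0.07 (edgeR adjusted *P* of 0.787, 0.433 and 0.821). *Rad21*, a subunit of the cohesin ring, fell from 140 ± 8.46 to 115 ± 8.96 CPM without overlap (log2 difference -0.28, SE 0.08, adjusted *P* = 0.0536), a call that ended when replicate 3 or 4 of the orchiectomized or replicate 3 or 5 of the DHT mice was left out, and that held in 3 of 6 other settings (it ended with all genes of at least 1 count, with the replicate block and with only the groups compared). *Cdca5*, which protects cohesin in dividing cells, was at 1.09 ± 0.0512 CPM in orchiectomized and 0.392 ± 0.303 CPM in DHT mice (-1.41, SE 0.39, adjusted *P* = 0.0512). The third was *Hdac8*, the deacetylase that recycles cohesin (-0.52, SE 0.18, adjusted *P* = 0.103), whose call held in only 2 of 15 fits that left out 1 library and in 2 of 6 other settings. Of 17 other genes of germ cells and meiosis, only 3 had enough reads to be tested, and none of these was called in any comparison. Their median differences were -0.50, 0.47 and -0.07, the first 2 being -0.33 and 0.33 without orchiectomized replicate 2.

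*Lrrc39* lies on the plus strand at chr3:116562973-116583134 (GRCm38), with 9 blocks of exons. The control mice had levels of 24.5, 20.0, 25.9, 16.4 and 23.3 CPM (mean 22.03 ± 3.80). The orchiectomized mice had 12.8, 12.3, 12.1, 13.3 and 14.2 CPM (mean 12.9 ± 0.843). The DHT mice had 17.7, 16.6, 13.7, 22.2 and 17.6 CPM (mean 17.6 ± 3.06). The orchiectomized mice lay within a narrow band (coefficient of variation 6.52%) below every control, and of the DHT mice only replicate 3 fell inside that band. The difference after orchiectomy was -0.77 on the log2 scale (SE 0.14, interval -1.07 to -0.47), or 0.588 times control. With DHT the level was 1.36-fold that of orchiectomized mice (0.44, SE 0.14, interval 0.14 to 0.74), and in 24 of 25 pairs of mice the DHT mouse was higher. DHT mice were at 0.798 times control (-0.33, interval -0.62 to -0.03), with overlap. Thus the mean of the DHT group lay between the others, unlike that of *Slc22a3* or *Ctcfl*, whose intervals between DHT and control mice include 0. Whether the genes differ in this was not tested. Leaving out orchiectomized replicate 2 gave -0.76, 0.44 and -0.32. At its 3' end *Lrrc39* shares 820 exonic bases with *Trmt13* on the opposite strand, and *Trmt13*, a tRNA methyltransferase gene, stood at 2.63, 2.61 and 2.46 CPM in the 3 groups with no call. It also shares 1050 exonic bases with a transcript annotated as unconfirmed by experiment, which was not analysed here.

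No other gene of the M-band was called in any comparison when all libraries were used, of 13 tested. Over the list, the medians were 0.80, -0.23 and 0.21. *Myom1*, the myomesin that cross-links myosin filaments, differed by -0.10 after orchiectomy and by 0.52 with DHT (edgeR adjusted *P* of 0.864 and 0.122). *Myh7*, the slow myosin heavy chain to which the Lrrc39 protein binds, differed by 1.90 (SE 1.14) and 0.04 (SE 1.06), with errors too wide to show a change. The neighboring gene *Dbt*, a subunit of branched-chain keto acid dehydrogenase, differed by -0.41 and 0.14 (adjusted *P* of 0.469 and 0.77). Without orchiectomized replicate 2, the library with 8503 CPM of cardiac markers, the medians were -1.18, 2.12 and 0.20, and 3 of the 13 genes were called lower in orchiectomized than in control mice and higher with DHT. Among them were *Ckm* (muscle creatine kinase) and *Ttn* (titin), named after their values were seen, with differences of -2.61 and -2.98 after orchiectomy and of 2.61 and 3.23 with DHT. Their edgeR adjusted *P* values were 0.43 and 0.43 after orchiectomy and 0.0438 and 0.0391 with DHT. Beside them, the summed level of 10 skeletal muscle markers, *Ckm* among them, was 46.6 to 585 CPM in control (median 68.8), 11.8 to 197 CPM in orchiectomized (median 15.39) and 88.9 to 519 CPM in DHT mice (median 306). Of these 10 markers 2 were lower after orchiectomy and 5 were higher with DHT, or 4 and 7 without orchiectomized replicate 2, and 1 was higher in DHT than in control mice. None of the 8 cardiac markers was called in any comparison, and no marker of either list was at 0 in every library of a group. Over the 15 libraries, the log2 level of *Lrrc39* had a Pearson correlation with that of the skeletal muscle markers of 0.359, and of -0.0923 once group means were removed. For the cardiac markers the values were -0.0999 and -0.0404. Larger values with group means removed were those with adipocyte markers (0.48 and 0.593) and with fibroblast markers (-0.372 and -0.617). Orchiectomized replicates 1, 3 and 4 had lower skeletal muscle sums than every other mouse, and the part of these cells in the level of *Lrrc39* was not tested.

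*Fam107a* lies on the minus strand at chr14:8296274-8318023 (GRCm38), with 6 blocks of exons, and shares no exonic base with a gene on the opposite strand. RefSeq gives it starts far apart, and the windows of 250 bases before to 50 bases after a start show the contrast between them. The window of the inner start, chr14:8309730-8310029 (GRCm38.p6, minus strand), holds AGAACA once and TGTTCT once, 158 and 110 bases before the start, while that of the outer start, chr14:8317558-8317857, holds neither. Capitals mark the hexamers, and all sequences are from RefSeq, 5′ to 3′ on the strand of the gene.
Fam107a inner start: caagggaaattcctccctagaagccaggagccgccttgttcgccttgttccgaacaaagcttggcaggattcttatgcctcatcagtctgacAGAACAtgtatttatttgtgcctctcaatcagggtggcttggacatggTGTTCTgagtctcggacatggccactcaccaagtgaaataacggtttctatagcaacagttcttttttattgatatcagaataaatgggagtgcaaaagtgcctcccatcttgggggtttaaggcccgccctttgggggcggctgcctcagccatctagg
Fam107a outer start: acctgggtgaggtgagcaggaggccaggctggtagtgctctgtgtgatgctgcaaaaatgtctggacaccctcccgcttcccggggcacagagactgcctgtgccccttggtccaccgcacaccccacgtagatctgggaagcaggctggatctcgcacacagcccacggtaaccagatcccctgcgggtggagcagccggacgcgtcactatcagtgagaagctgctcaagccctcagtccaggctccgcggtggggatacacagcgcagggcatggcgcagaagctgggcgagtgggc
AGAACA or TGTTCT was found in 19.0% of 32851 such windows over all genes, on either strand, so a match is a description of the letters and does not show a site. The full palindrome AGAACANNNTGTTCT was in 3 windows in all, and in none of those of the 4 genes among the 5 that have an entry. The windows of the 2 genes that were lower after orchiectomy and have an entry hold no AGAACA or TGTTCT, and they are shown for comparison. They lie at chr17:12507655-12507954 on the minus strand and at chr3:116562733-116563032 on the plus strand.
Slc22a3: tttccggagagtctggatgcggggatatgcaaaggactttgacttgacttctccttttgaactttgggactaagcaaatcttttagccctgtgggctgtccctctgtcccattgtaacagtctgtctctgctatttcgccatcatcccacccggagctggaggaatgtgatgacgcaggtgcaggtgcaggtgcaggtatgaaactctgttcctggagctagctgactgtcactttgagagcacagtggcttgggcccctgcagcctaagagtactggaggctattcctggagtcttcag
Lrrc39: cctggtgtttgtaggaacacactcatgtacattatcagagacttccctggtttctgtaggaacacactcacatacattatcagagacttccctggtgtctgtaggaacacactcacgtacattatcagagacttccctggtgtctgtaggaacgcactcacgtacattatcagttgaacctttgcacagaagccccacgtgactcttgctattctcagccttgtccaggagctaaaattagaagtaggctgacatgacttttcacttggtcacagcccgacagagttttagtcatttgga
The windows of *St3gal6* held neither hexamer.

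*Fam107a* was not lower after orchiectomy but was higher with DHT than in both other groups. In the control mice its level was 6.79, 8.62, 10.2, 13.8 and 10.4 CPM (mean 9.97 ± 2.60). In the orchiectomized mice it was 7.86, 10.4, 11.7, 9.97 and 9.61 CPM (mean 9.92 ± 1.40). In the DHT mice it was 25.7, 26.4, 22.8, 25.8 and 33.7 CPM (mean 26.9 ± 4.06). All 5 DHT mice were above all 10 others, and the other 2 groups were interleaved. The difference between DHT and orchiectomized mice was 1.44 on the log2 scale (SE 0.17, interval 1.07 to 1.81), a 2.71-fold level. Against control it was 1.43 (interval 1.06 to 1.80), a 2.69-fold level. After orchiectomy the difference from control was -0.01 (SE 0.17), and its interval, -0.38 to 0.36, covers levels from 0.770 to 1.28 times control. Leaving out orchiectomized replicate 2 gave 1.47, 1.43 and -0.04 for the 3 differences in this order.

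Among 17 other tested genes known to respond to glucocorticoids, 2 rose and 1 fell after orchiectomy, 5 rose with DHT relative to orchiectomized mice, and 6 were higher in DHT than in control mice. Only 1 rose after orchiectomy once orchiectomized replicate 2 was left out. Median differences of this list were -0.01, -0.0066 and 0.28. *Fkbp5*, an immunophilin of steroid receptor complexes and a target of androgens and of glucocorticoids, had the pattern of *Fam107a*, with 31.6 ± 8.36 CPM in control, 29.7 ± 10.2 CPM in orchiectomized and 80.9 ± 21.0 CPM in DHT mice. All 5 DHT mice, at 61.5 to 104 CPM, were above the highest of the others, at 47.0 CPM. Its differences were 1.44 with DHT against orchiectomized (SE 0.24, edgeR adjusted *P* = 0.00777), 1.35 against control (SE 0.24, adjusted *P* = 0.0347) and -0.09 after orchiectomy (SE 0.24, adjusted *P* = 0.908). *Mt2*, a metal-binding metallothionein, rose by 1.43 (SE 0.26, adjusted *P* = 0.0113) and 1.11 (SE 0.26, adjusted *P* = 0.0929) against orchiectomized and control mice, without overlap in either. *Zbtb16*, a zinc finger repressor induced by steroids, rose by 1.04 (SE 0.27, adjusted *P* = 0.0432) and 0.99 (SE 0.27, adjusted *P* = 0.183), the latter a call lost without DHT replicate 4.

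Other steroid targets had other patterns. *Per1*, a clock gene, was higher in orchiectomized (50.6 ± 13.2 CPM) and in DHT mice (45.8 ± 13.4 CPM) than in control mice (25.2 ± 2.12 CPM). The differences were 1.01 (SE 0.20, edgeR adjusted *P* = 0.131) and 0.86 (SE 0.20, adjusted *P* = 0.0915), both called at the unadjusted threshold and without overlap. *Tsc22d3*, the glucocorticoid-induced leucine zipper, differed by 0.66 after orchiectomy (SE 0.22, adjusted *P* = 0.308), and its call held in only 5 of 15 fits that left out 1 library and in 1 of 6 other settings. *Sgk1*, a kinase induced by mineralocorticoids, differed by 0.28, -0.01 and 0.28 with no call (adjusted *P* from 0.449 to 0.988). *Hsd11b1*, which regenerates active glucocorticoid in tissue, fell after orchiectomy from 80.9 ± 17.9 to 44.2 ± 14.0 CPM (-0.87, SE 0.22, adjusted *P* = 0.244), and was at 69.0 ± 16.7 CPM with DHT (0.64, SE 0.22, adjusted *P* = 0.103), where the call held in 5 of 15 such fits and in 3 of 6 other settings.

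Among 11 partners and relatives of the Fam107a protein at actin filaments, 1 was called, and only between DHT and orchiectomized mice. The list medians were 0.02, 0.18 and 0.14. This was *Ezr* (ezrin, which ties membranes to actin), at 73.6 ± 82.1 CPM in orchiectomized and 15.1 ± 2.72 CPM in DHT mice (-2.28, SE 0.49, edgeR adjusted *P* = 0.0206), where the highest orchiectomized value was 219 CPM. Its difference was -1.29 without orchiectomized replicate 2, and it was then also called lower in DHT than in control mice (-0.89, unadjusted *P* = 0.000404, edgeR adjusted *P* = 0.053). The paralog *Fam107b* differed by 0.32, -0.74 and -0.42, with adjusted *P* values of 0.705, 0.183 and 0.609.

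*St3gal6* lies on the minus strand at chr16:58468125-58524243 (GRCm38), with 16 blocks of exons. The control mice had levels of 19.7, 17.9, 16.9, 18.1 and 27.2 CPM (mean 20.0 ± 4.18). The orchiectomized mice had 26.1, 54.6, 35.0, 55.4 and 28.3 CPM (mean 39.9 ± 14.2). The DHT mice had 11.6, 15.7, 12.3, 12.8 and 12.7 CPM (mean 13.0 ± 1.55). The orchiectomized mice spread over a wide range, with replicates 2 and 4 near 55 CPM, and all but replicate 1 were above every control, as control replicate 5 was higher than replicate 1. The DHT mice lay together below all 10 others. The difference after orchiectomy was 1.00 on the log2 scale (SE 0.21, interval 0.55 to 1.45), a 2.00-fold level. With DHT the level was 0.327 times that of orchiectomized mice (-1.61, SE 0.22, interval -2.07 to -1.15) and 0.654 times that of control (-0.61, SE 0.21, interval -1.07 to -0.16). Without orchiectomized replicate 2 the 3 differences were 0.85, -1.46 and -0.61. The 3' end of *St3gal6* shares 1603 exonic bases with *Dcbld2* on the opposite strand, a gene for a membrane protein that stood at 68.7 ± 12.0, 71.3 ± 12.7 and 71.3 ± 9.94 CPM in control, orchiectomized and DHT mice with no call.

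Markers of other cell types also differed between the groups, not all of them in the same comparisons as *St3gal6*. The summed level of B cell markers was 4.21 to 11.3 CPM in control (median 7.93), 8.29 to 181 CPM in orchiectomized (median 47.6) and 3.76 to 12.7 CPM in DHT mice (median 7.03). All 7 tested B cell markers were higher after orchiectomy and all 7 were lower with DHT. The T cell markers were at 4.68 to 15.2, 8.94 to 72.0 and 4.79 to 7.90 CPM, with 5 of 6 higher after orchiectomy and all 6 lower with DHT. The macrophage markers were at 416 to 1112, 718 to 1540 and 385 to 768 CPM, with none of 10 called after orchiectomy and 3 lower with DHT, or 1 without orchiectomized replicate 2. The mesothelial markers were at 34.5 to 96.2, 46.7 to 380 and 8.85 to 24.1 CPM, and none of the 6 tested was called after orchiectomy. All 6 were lower with DHT than in orchiectomized mice, 5 of them also lower than in control mice. Without orchiectomized replicate 2, 6 of 7 B cell and 3 of 6 T cell markers were higher after orchiectomy, and 6 and 5 of them were lower with DHT. No marker of these 4 lists was at 0 in every library of a group. Over the 15 libraries the log2 level of *St3gal6* had a Pearson correlation with the B cell markers of 0.854 (0.783 with group means removed). With the mesothelial markers it was 0.857 (0.665), with the cardiac muscle markers 0.225 (0.698) and with the smooth muscle markers -0.798 (-0.803). Orchiectomized replicate 2 had the highest B cell, mesothelial and cardiac sums and the lowest smooth muscle sum, and no correlation is given without it. Both sides of each correlation come from the same libraries, which differ in depth and tissue composition, and the part of these cells in the result was not tested. Orchiectomized replicates 1 and 5 had B cell sums of 8.29 and 15.38 CPM, against at most 11.3 CPM in the control mice, and *St3gal6* levels of 26.1 and 28.3 CPM.

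**Figure D3:**
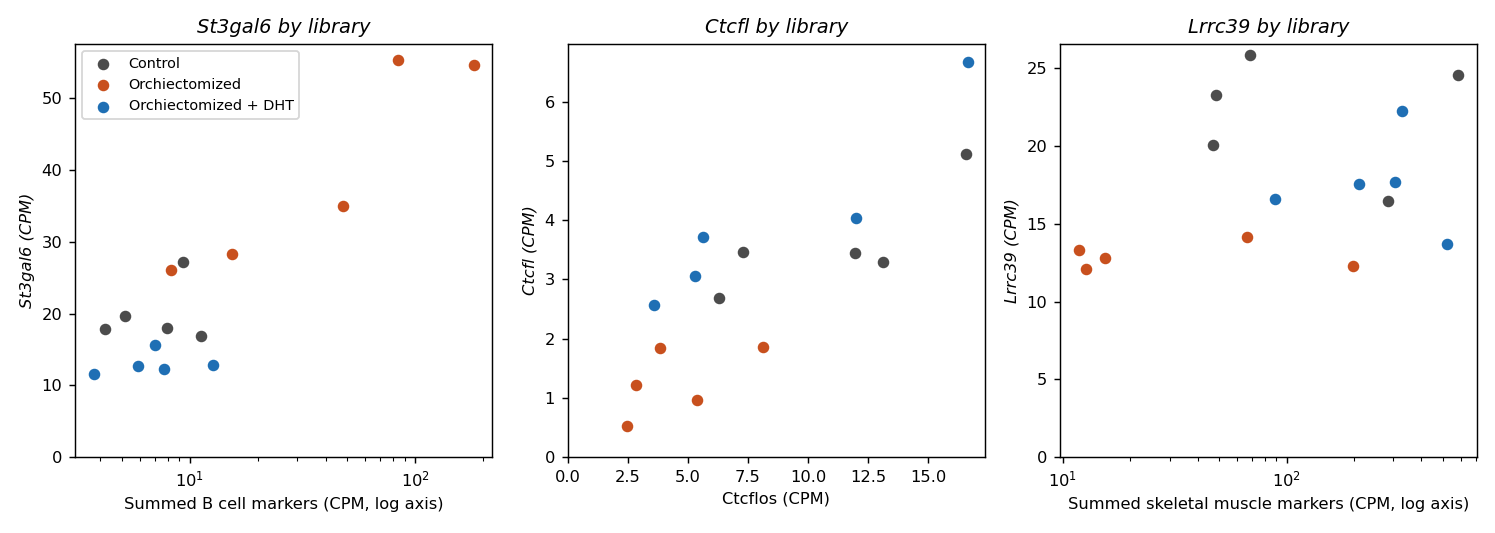
Level of a gene (vertical axis, CPM) against another level in the same library (horizontal axis, CPM), each point 1 library and colors the 3 groups. Shown are *St3gal6* with summed B cell markers (log axis), *Ctcfl* with *Ctcflos* (linear axis) and *Lrrc39* with summed skeletal muscle markers (log axis). The orchiectomized mice with the most B cell markers, replicates 2 and 4, had the highest *St3gal6* levels, near 55 CPM, and every orchiectomized mouse had less *Lrrc39* than every control, while orchiectomized replicates 1, 3 and 4 had the lowest skeletal muscle markers of all mice.

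Of 22 other tested genes that add, make or remove sialic acid, 2 rose after orchiectomy, 2 fell and 1 rose with DHT relative to orchiectomized mice, and none was called between DHT and control mice. Of all tested genes 3.22%, 9.72% and 3.53% were called in these comparisons, and nothing is read from the counts about the family. With orchiectomized replicate 2 left out, 1 rose and 1 fell after orchiectomy, with a list median of 0.0646. Over the list, the medians with all libraries were 0.12, -0.15 and 0.05. *St3gal4*, which acts on the same galactose acceptors in selectin ligands, rose after orchiectomy and fell with DHT, from 23.9 ± 2.08 CPM in control to 36.5 ± 11.4 CPM in orchiectomized mice (log2 difference 0.61, SE 0.16, edgeR adjusted *P* = 0.244) and to 22.7 ± 2.40 CPM with DHT (-0.69, SE 0.16, adjusted *P* = 0.0281), without overlap in either. Leaving out orchiectomized replicate 2 gave 0.38 and -0.46, both called. Unlike *St3gal6*, it overlapped between DHT and control mice (-0.08, adjusted *P* = 0.879). *St3gal3*, another member of the subfamily, rose with DHT by 0.45 (SE 0.14, adjusted *P* = 0.0896), a call that held in 7 of 15 fits without 1 library and in 5 of 6 other settings. *St8sia2*, which builds polysialic acid, was at 3.36 ± 3.74 CPM in orchiectomized mice (after orchiectomy 1.65, SE 0.56, adjusted *P* = 0.31, held in 2 of 15 such fits and in 1 of 5 other settings) and at 0.684 ± 0.165 CPM with DHT (-2.28, SE 0.59, adjusted *P* = 0.0401), and without orchiectomized replicate 2 the differences were 0.69 and -1.31. For *St3gal1*, *St3gal2* and *St6gal1* no difference was larger than 0.21 in size, and none was called. *St3gal5*, which makes the ganglioside GM3, differed by -0.23, 0.35 and 0.12 with no call in all libraries (adjusted *P* of 0.456, 0.104 and 0.707). Without orchiectomized replicate 2 it was called higher with DHT than in orchiectomized mice (0.41, unadjusted *P* = 0.00526, edgeR adjusted *P* = 0.0906).

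Selectin ligands are made by a chain of enzymes that extend, sulfate and sialylate glycans on proteins such as that of *Selplg*. Of 12 other tested genes of this list, *St3gal4* among them, 4 rose after orchiectomy, 8 fell with DHT relative to orchiectomized mice, and 4 were lower in DHT than in control mice. Median differences of this list were 0.16, -0.97 and -0.42. *Selplg*, a ligand protein of leukocytes, rose by 1.13 (SE 0.34, edgeR adjusted *P* = 0.285) and fell with DHT by 1.55 (SE 0.35, adjusted *P* = 0.0243). It moved as the B and T cell markers did. The sulfotransferase *Chst2* rose by 0.55 (SE 0.16, adjusted *P* = 0.285) and fell by 0.67 (SE 0.17, adjusted *P* = 0.0335). Of these calls after orchiectomy, that of *Selplg* was lost without orchiectomized replicate 2 or 4 or control replicate 1 or 2, and that of *Chst2* without orchiectomized replicate 1 or 3 or control replicate 2 or 5 and in the fit of only the groups compared.

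A further part of that list was lower in DHT mice than in both other groups. In the same comparisons, with orchiectomized and with control mice, 3 and 4 of 8 endothelial markers and 6 and 5 of 6 mesothelial markers were lower with DHT, and their part in these differences was not tested. *Chst4*, a sulfotransferase of endothelium in lymph nodes, was at 2.46 ± 1.32 CPM in control, 2.61 ± 0.784 CPM in orchiectomized and 0.396 ± 0.294 CPM in DHT mice (edgeR log2 differences of DHT -2.66, adjusted *P* = 0.0152, and -2.58, adjusted *P* = 0.0506). *Gcnt1*, which starts branched O-glycans, fell by 1.14 (adjusted *P* = 0.0401) and 1.13 (adjusted *P* = 0.152). *B3gnt3*, which extends O-glycans, fell by 1.33 (adjusted *P* = 0.0379) and 1.14 (adjusted *P* = 0.219), the latter a call lost without control replicate 3 or 5 or DHT replicate 5.

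**Figure D4:**
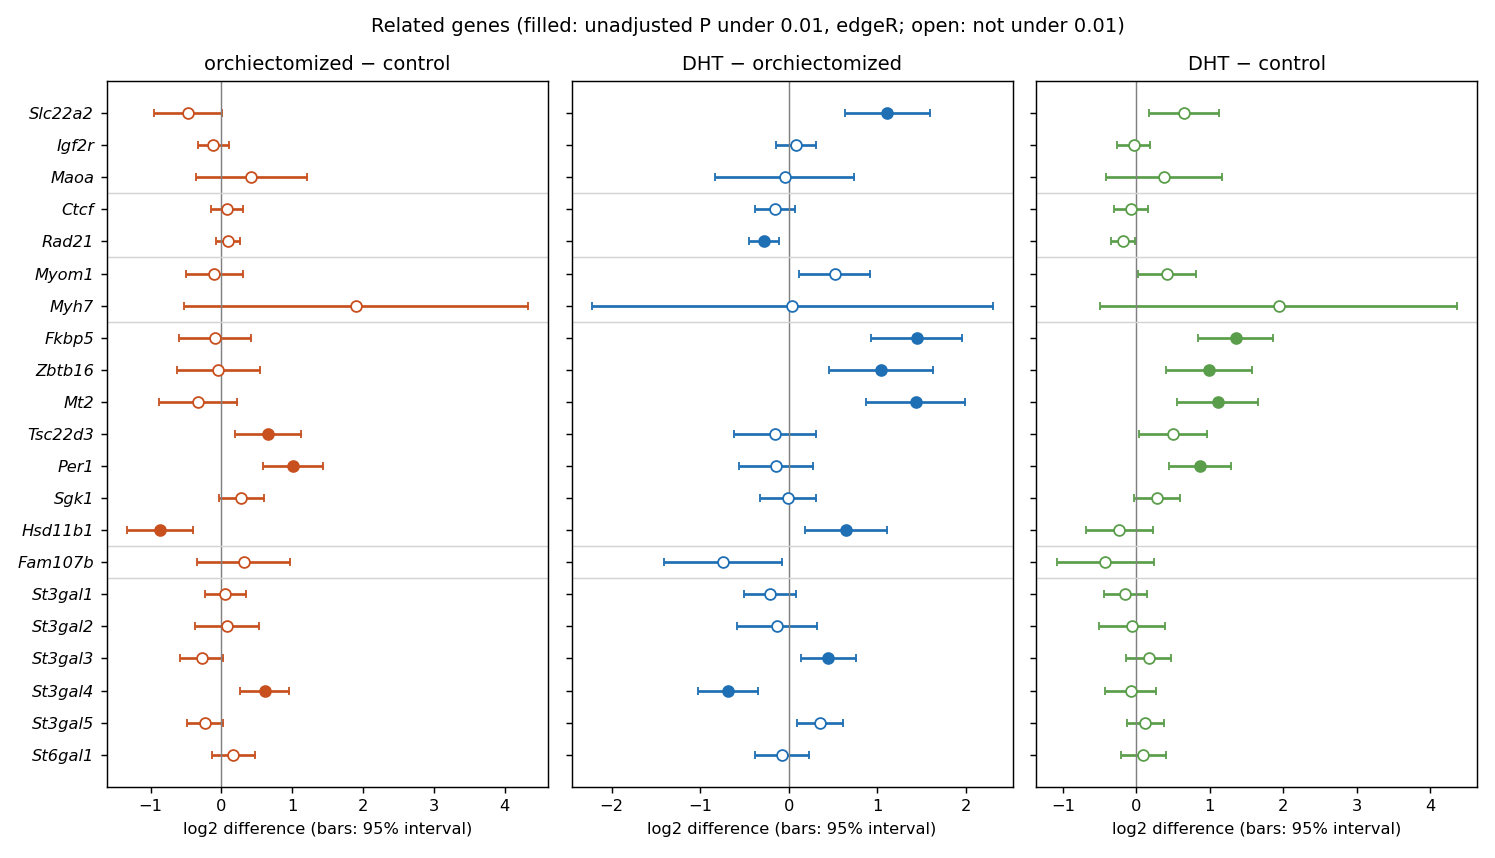
Differences on the log2 scale (horizontal axes, 95% intervals) of genes related to the 5 by family, location or pathway, in the 3 comparisons, with filled points for an unadjusted edgeR *P* value under 0.01. *Fkbp5*, *Mt2* and *Zbtb16* were higher with DHT than in both other groups, and *St3gal4* rose after orchiectomy and fell with DHT.

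Genes of androgen signaling were also listed. Of 25 other tested genes, 1 rose and 2 fell after orchiectomy, 2 rose and 1 fell with DHT relative to orchiectomized mice, and 2 were higher in DHT than in control mice, these being *Fkbp5* and *Zbtb16* in both comparisons with DHT. The list medians were -0.03, 0.02 and 0.08. *Herc3*, a ubiquitin ligase gene, fell after orchiectomy by 0.47 (SE 0.14, edgeR adjusted *P* = 0.285) and *Ell2*, an elongation factor gene, by 0.44 (SE 0.14, adjusted *P* = 0.302), both without overlap. *Hsd17b11*, which oxidizes steroids, rose by 0.36 (SE 0.12, adjusted *P* = 0.308). Without orchiectomized replicate 2, none of these 3 was called after orchiectomy. *Ell2* was then called lower in DHT than in control mice (-0.34, unadjusted *P* = 0.00672, edgeR adjusted *P* = 0.192). Over all 15 fits that left out 1 library, the 3 calls after orchiectomy held in 12, 7 and 5. That of *Herc3* was also lost without control replicate 1 or 2. In 6 other settings the 3 calls after orchiectomy held in 6, 4 and 1. *Odc1*, which makes polyamines, fell with DHT by 0.34 (SE 0.10, adjusted *P* = 0.0607), a call that ended when replicate 1 or 5 of the orchiectomized or replicate 4 or 5 of the DHT mice was left out.

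For each of the 5 genes, the 3 tested genes with the most similar log2 levels over the 15 libraries were found by Pearson correlation. Both levels come from the same libraries, which differ in group, depth and tissue composition, so the correlation with group means removed stands beside each. The genes nearest to *Slc22a3* were *Fam149b* (0.889, with group means removed 0.707), *Snhg7* (0.866 and 0.776) and *Hephl1* (0.847 and 0.477). *Hephl1*, a ferroxidase gene, was at 15.01 ± 8.08 CPM in control, 1.79 ± 1.01 CPM in orchiectomized and 12.7 ± 8.71 CPM in DHT mice, with every orchiectomized mouse at 2.85 CPM or less and every other mouse at 5.86 CPM or more. Nearest to *Ctcfl* were *H6pd* (0.949 and 0.927), which supplies NADPH in the endoplasmic reticulum, *Cnnm2* (0.947 and 0.856), a gene of magnesium transport, and *Pank3* (0.93 and 0.82), a pantothenate kinase. *H6pd* was at 231 ± 33.6, 170 ± 22.3 and 224 ± 34.9 CPM in control, orchiectomized and DHT mice.

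Among the nearest to *Lrrc39* were *Slc25a44* (0.917 and 0.87), the mitochondrial carrier of branched-chain amino acids, and *Nabp1* (0.899 and 0.803). *Slc25a44* had medians of 112, 57.5 and 66.4 CPM in the 3 groups, so its DHT median lay between the others. For *Fam107a* they were *Fkbp5* (0.95 and 0.776), *Vstm2b* (0.908 and 0.296) and *Slc7a5* (0.899 and 0.593), a carrier of large neutral amino acids. All 3 were high in the DHT mice, and *Vstm2b*, with 28 to 187 reads per library, was at 3.42, 4.53 and 13.3 CPM on average. For *St3gal6* they were *Abcg2* (0.957 and 0.861), an efflux transporter, *Irf5* (0.955 and 0.825), a transcription factor of myeloid and B cells, and *Serpinb1a* (0.942 and 0.839), an inhibitor of neutrophil proteases. *Irf5* was at 10.8, 18.3 and 7.11 CPM on average. Among the 5 genes themselves, with group means removed, *Slc22a3* and *Lrrc39* varied together most between mice of a group (0.826), followed by *Ctcfl* and *Lrrc39* (0.477), and the other 8 pairs lay between -0.361 and 0.253.

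Markers of the remaining cell types are given for the same libraries. Neutrophil markers were at 2.62 to 4.25 CPM in control, 9.56 to 35.7 CPM in orchiectomized and 4.14 to 14.1 CPM in DHT mice, and of 4 tested 3 were higher after orchiectomy, 3 were lower with DHT than in orchiectomized mice (1 without orchiectomized replicate 2) and 2 were higher with DHT than in control mice. Smooth muscle markers were at 14310 to 20520, 11200 to 20700 and 20150 to 25020 CPM with none of 8 called, although without orchiectomized replicate 2 the calls were 3 higher in DHT than in control and 1 higher in DHT than in orchiectomized mice. Of 8 endothelial markers 3 were lower in DHT than in orchiectomized and 4 lower than in control mice, and of 8 fibroblast markers 2 were lower and 1 higher in the first and 2 lower in the second of these comparisons, with none called after orchiectomy in either list. Adipocyte markers were at 2414 to 6152, 2693 to 4739 and 2657 to 5246 CPM in the 3 groups, with medians of 5029, 3874 and 4941 CPM. Of the 8 tested, 1 was lower after orchiectomy, and the list medians of the log2 differences were -0.558, 0.355 and -0.184. None of 8 neural and Schwann cell markers was called in any comparison. Over the 15 libraries the Pearson correlations of *Slc22a3* with these 12 marker sums ran from -0.792 (T cell) to 0.513 (skeletal muscle). With group means removed they ran from -0.474 (macrophage) to 0.397 (adipocyte). For *Ctcfl* they ran from -0.765 (neutrophil) to 0.413 (smooth muscle), and from -0.558 (mesothelial) to 0.445 (adipocyte) with group means removed. Those of *Lrrc39* lay between -0.758 (neutrophil) and 0.48 (adipocyte), and with group means removed between -0.617 (fibroblast) and 0.593 (adipocyte). Those of *Fam107a* lay between -0.763 (mesothelial) and 0.56 (smooth muscle), and with group means removed between -0.351 (adipocyte) and 0.667 (T cell). The part of these cells in the levels of the 5 genes was not tested.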

How the data were processed

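RNA-Seq was performed on whole aortas of 15 mice, 5 per group, with group and replicate number taken from the labels. For each library the authors deposited read counts by gene symbol, without normalization. The submitters' processing notes name STAR, Cufflinks, DESeq2 and the mm10 build. The counting program, the annotation and whether strand was used are not given in the sources used here. The entries for reads on no gene (6.26% to 14.4%) and for ambiguous reads (1.34% to 1.97%) were left out.

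These counts entered edgeR 4.0.16 (R 4.3.3) with filterByExpr (minimum count 10, minimum total count 15), TMM scaling and a quasi-likelihood model of the 3 groups fitted to all 15 libraries, which share 1 estimate of the spread (biological coefficient of variation 0.297). Genes were called at an unadjusted *P* value under 0.01, the threshold of the study, with Benjamini-Hochberg adjusted *P* values over all 14121 genes tested. *P* values judge a difference between groups against the spread between these mice. No 2 libraries of a group agreed within sampling noise. Levels are TMM-scaled counts by library size, as CPM, and likeness and marker correlations used log2 CPM with a prior count of 3 (pseudocount of 1 for marker sums). The method was tested on simulated data.

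The 5 genes, the 10 gene lists and the 12 marker lists were chosen with earlier results of these data known. Named beside the 5 genes were, in each list, up to 3 called genes with the smallest *P* value per comparison, a set of close relatives whatever their value, and the 3 genes most like each of the 5. Some genes that this rule names are not reported here. Gene positions are from GENCODE M21 (GRCm38) and promoter windows from RefSeq (GRCm38.p6), which covered 4 of the 5 genes, and mm10 is the same assembly as GRCm38. Alternatives were DESeq2 1.42.0, RLE size factors, 2 other filters, the replicate number as a block and a fit of only the groups compared. Further alternatives were an adjusted *P* value under 0.05 and leaving out each library in turn. For likeness they were Spearman correlation and removal of group means.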

Additional observations from a re-analysis of the deposited data

Results flagged for a closer look

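In the control mice, the level of *St3gal6* in replicate 5 (27.2 CPM) stood apart from that of the other 4, the nearest of which was at 19.7 CPM. The gap was 0.724 of the range of the group, above the Dixon critical value for 5 samples. It was the only one of the 15 combinations of gene and group examined that passed, and chance alone passes about 1 in 20. Without that library the difference of *St3gal6* between orchiectomized and control mice was 1.14 on the log2 scale, and between DHT and control mice -0.48.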

How the results depend on the processing

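The differences of the 5 genes kept their sign under every alternative, apart from those near 0. On leaving out 1 library the differences after orchiectomy ranged from -0.77 to -0.59 for *Slc22a3*, -1.66 to -1.27 for *Ctcfl*, -0.86 to -0.73 for *Lrrc39* and 0.81 to 1.14 for *St3gal6*. Those with DHT against orchiectomized mice ranged from 0.71 to 0.84, 1.38 to 1.82, 0.36 to 0.54 and -1.71 to -1.43 in the same order, and from 1.37 to 1.53 for *Fam107a*. *Fam107a* after orchiectomy ranged from -0.12 to 0.14, and *Ctcfl* between DHT and control mice from -0.11 to 0.30. A filter of at least 10 counts in every library removed *Ctcfl* and so gave no value for it.

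The counts of called genes depended on the threshold and the fit, and the cause was not tested beyond the construction of each alternative. After orchiectomy 454 genes were called, 12 of them in the pathway lists, against 0 and 0 at an edgeR adjusted *P* value under 0.05, where 1692 genes had an unadjusted *P* value under 0.05 and DESeq2 called 131 at the adjusted threshold. With all genes of at least 1 count 752 were called, and in a fit of only the groups compared 297, of which 7 in the lists. With DHT against orchiectomized mice the adjusted threshold took 1373 calls to 666 and 24 list genes to 15, and against control mice 498 to 37 and 11 to 1. On leaving out 1 library the 3 comparisons gave 252 (without control replicate 1) to 716 (without control replicate 4), 1008 to 1585, and 283 (without control replicate 5) to 681 (without orchiectomized replicate 2) calls, and 5 (without control replicate 2) to 12, 19 to 26, and 8 to 15 list genes. Over the single related genes, planned settings other than leaving out a library ended 29 calls and added 15, and the fits that left out 1 library ended 98 and added 17, none with a changed direction. Spearman correlation and removal of group means together moved 7 values of likeness outside the interval of the correlation given, most of them by removal of group means.

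Mice that share a replicate number did not all deviate together, as 15 correlations of their deviations ran from -0.466 to 0.463, with 5 over 0.1. Unlike replicate numbers were not compared, so these values cannot settle whether the numbers pair some of the samples. With the replicate block, 285 genes and 7 list genes were called after orchiectomy. *Ctcfl*, with 6 to 54 reads per library, is the gene whose precision depth limits most.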
